A study of Homo sapiens with 60 samples.

Results

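The cytochrome P450 genes other than the CYP1 family were followed in HepG2, a human hepatocellular carcinoma line, after 24 h with hot-water extracts of medicinal herbs. Members were the protein-coding genes whose symbol consists of CYP, a number, a letter and a number. CYP1A1, CYP1A2 and CYP1B1 were left out, as were CYP7A1, CYP8B1, CYP27A1 and CYP51A1, which act in bile acid and cholesterol synthesis. This gave 48 members of the 60675 genes in the deposited table, of which 21 had enough counts to be tested and 27 did not.

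RNA-seq libraries were made from cells given 1 of 2 single herbs, Menthae Herba or Saposhnikoviae Radix, or 1 of the formulae Guibi-tang, Saengmaek-san, Okbyeongpung-san and Soyo-san. Each extract was given at 20, 100 and 500 µg/mL, every dose group had 3 libraries, and so did the vehicle group. Another formula, Soshiho-tang, had 1 library per dose and entered no test. The sample labels give the vehicle as 0.1% DMSO, while the series' design text gives 2% DMSO, and the labels do not say whether the 3 libraries of a group came from separate cultures, so that the tests see the spread among these libraries, which may be technical. All groups were of 1 cell line, which stands for a tumour-derived liver cell and not for normal hepatocytes. Library totals ran between 20446542 and 32386486 counts. The 9 hepatocyte markers summed to between 37700 and 51060 CPM (counts scaled to a common total after TMM normalization). At 500 against 20 µg/mL 1 of the 9 was called as higher and 3 as lower with Menthae Herba, where 32.1% of all tested genes were called. With Guibi-tang 4 were lower (8.12% of all genes), with Saengmaek-san 1 was lower (1.96%) and with Soyo-san 1 was higher (7.58%). Their part in the results below was not tested. Markers of other cells summed to 8.22 to 25.6 CPM (fibroblast, 5 genes, DCN at most 0.0383), 3.84 to 6.06 (endothelial, 3 genes), 2.89 to 4.58 (neural, 4 genes) and at most 0.214 CPM (lung, 4 genes). With Menthae Herba at 500 against 20 µg/mL 1 of 2 tested fibroblast markers was higher and 1 of 3 tested endothelial markers lower. The 5 leukocyte markers summed to 925.4 to 2629 CPM, nearly all of it LYZ (922.9 to 2628 CPM), with CD3E at most at 0.0413 CPM. Of the 3 that were tested, 1 was higher and 1 lower at 500 against 20 µg/mL with Menthae Herba and with Guibi-tang, 1 was higher with Saengmaek-san and with Soyo-san, and their part in the results was not tested. The shares of all genes called in these extracts are those given with the hepatocyte markers. Libraries fell into 2 classes by the level of MALAT1, a long nuclear RNA: 31 libraries held 174.6 to 282.6 CPM and 29 held 387.0 to 552.5 CPM. The lower class held every library of the single herbs and of vehicle. The higher class held every library of Okbyeongpung-san, Soshiho-tang and Soyo-san. Saengmaek-san and Guibi-tang had libraries of both classes in each dose group. With the class in the model 19 of the 110 member calls made over all comparisons were lost, all of them against vehicle, and they are named below.

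Cytochrome P450 enzymes are haem proteins that insert oxygen into lipophilic molecules, taking electrons from NADPH through cytochrome P450 reductase in the endoplasmic reticulum or through adrenodoxin in mitochondria. Some families, mainly CYP2 and CYP3, clear drugs and other foreign compounds in the liver. Others have fixed endogenous substrates: CYP4 enzymes hydroxylate fatty acids and eicosanoids, CYP11, CYP19 and CYP21 enzymes make steroid hormones, CYP26 enzymes degrade retinoic acid, and CYP2R1, CYP27B1 and CYP24A1 activate and inactivate vitamin D.

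Most of the classical hepatic drug-metabolising members were at or near the limit of detection. CYP11B2, CYP2A13, CYP2C19, CYP4F8 and CYP4Z1 had 0 counts in all 60 libraries. A count of 3, taken as the floor, corresponded to 0.145 CPM in the library with the smallest normalized total and 0.0923 CPM in that with the largest, which covers counting error only. Another 12 members, among them CYP2B6, CYP4A11 and CYP26A1, never had more than 3 counts in a library. CYP3A4, the main drug-clearing P450 of adult liver, had at most 9 counts in a library (0.367 CPM), CYP2E1, which oxidises ethanol and small solvents, at most 9 (0.377 CPM), CYP2C8 at most 7 and CYP2A6, the nicotine oxidase, at most 4. CYP7B1, an oxysterol hydroxylase, reached 10 counts in its highest library and also failed the filter. CYP17A1, CYP26C1, CYP2F1, CYP39A1 and CYP46A1 had at most 4 to 5 counts, and CYP11B1, CYP27C1, CYP2A7, CYP2C18, CYP4A22, CYP4B1, CYP4F22 and CYP4X1 had at most 3. Changes in these 27 genes were not detectable at this depth.

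Per kilobase of exon, CYP2W1 was the most abundant member in vehicle cells, at 38.6 ± 2.64 CPM per kb (SD, n = 3). CYP2W1 is an enzyme known from fetal gut and colorectal tumours. CYP20A1, whose substrate is not established, followed at 11.7 ± 0.42 CPM per kb, then the vitamin D 24-hydroxylase CYP24A1 at 6.78 ± 0.41 and the fatty acid hydroxylase CYP4F11 at 5.89 ± 0.181 CPM per kb. CYP4F3 (3.76 ± 0.158) and CYP4F12 (3.62 ± 0.0297 CPM per kb) did not differ beyond their spread, and neither did CYP4F2 (1.38 ± 0.0853), CYP2U1 (1.36 ± 0.0949) and CYP2J2 (1.3 ± 0.211 CPM per kb). CYP3A7, the fetal liver form, stood at 0.939 ± 0.119 CPM per kb in vehicle cells, CYP3A5 at 0.589 ± 0.0827 and the untestable CYP3A4 at 0.086 ± 0.0366. The lowest of the tested members were CYP3A43 (0.116 ± 0.0222) and the retinoic acid hydroxylase CYP26B1 (0.0808 ± 0.0274 CPM per kb).

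**Figure D1:**
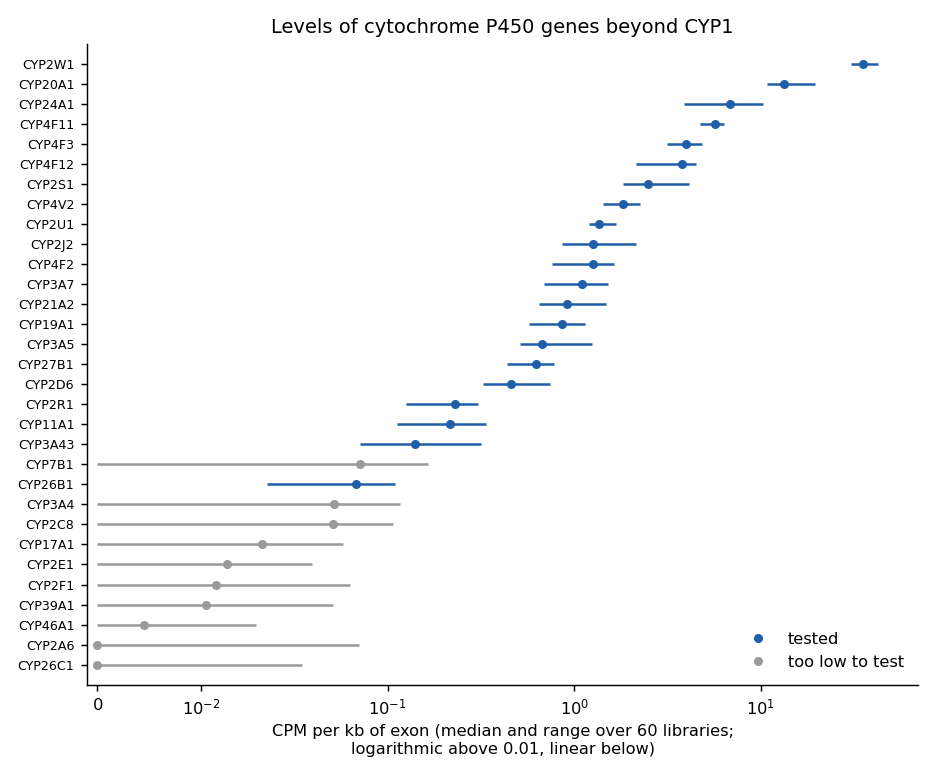
Level of the members that had more than 3 counts in at least 1 library, in CPM per kb of exon, on an axis that is logarithmic above 0.01 and linear below; points are medians and lines ranges over 60 libraries. CYP2W1 lies highest, between 30.3 and 42.3 CPM per kb, and the drawn members that were too low to test lie at the lower end.

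Raising the dose to 500 from 20 µg/mL moved members in 4 of the 6 extracts, and 9 of the 21 tested genes were called at an adjusted p under 0.05 in at least 1 of the 6 extracts. The share of all genes called in at least 1 extract was not computed. Menthae Herba alone called 32.1% of them, so the 9 members are not read as an excess. With Menthae Herba 3 members rose (CYP3A5, CYP2J2 and CYP2S1) and 4 fell (CYP24A1, CYP19A1, CYP4F2 and CYP4F12). In such bulk samples fewer cells that make an RNA and less of it per cell cannot be told apart. That was 7 of 21, or 33.3%, where 32.1% of all 16644 tested genes were called, 16.3% as higher and 15.8% as lower, so the share was close to the background. With Guibi-tang 4 members rose (CYP24A1, CYP3A5, CYP2S1 and CYP19A1) and 3 fell (CYP4F2, CYP4F12 and CYP4F3), again 7 of 21, against a background of 8.12% in either direction, 4.93% higher and 3.2% lower. With Soyo-san CYP3A5 and CYP2J2 rose and CYP24A1, CYP4F2 and CYP4F12 fell, 5 of 21 against 7.58% of all genes, 4.24% higher and 3.34% lower. With Saengmaek-san CYP24A1 rose and CYP4F2, CYP4F12 and CYP4V2 fell, 4 of 21 against 1.96% of all genes, 0.913% higher and 1.05% lower. No member was called with Saposhnikoviae Radix or Okbyeongpung-san, where edgeR's quasi-likelihood test called 0.397% and 0.024% of all genes. DESeq2 also called 0 members there, but gave no adjusted p to 5 and 3 of the 21. By edgeR 1 and 2 members had an unadjusted p under 0.05. The count was 1 with Saengmaek-san without its 500 µg/mL replicate 1 and 2 without its 20 µg/mL replicate 2 or 3. It was 4 with Guibi-tang without its 20 µg/mL replicate 2, and 3 with Soyo-san without its 500 µg/mL replicate 1 or 3.

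The median of the absolute log2 fold change over the 21 members was 0.18 with Menthae Herba, where it was 0.188 over all tested genes, and 0.24 with Guibi-tang, where it was 0.107 over all tested genes. With Saposhnikoviae Radix it was 0.08 over the members and 0.073 over all tested genes. CYP3A5 and CYP2J2 had a log2 fold change above 0 in 6 of 6 extracts and CYP4F12 had one below 0 in 6 of 6. Of these changes 3, 2 and 4 were called, in this order of genes. CYP2W1 and CYP4F11 also had no change above 0, and no call. The share of all genes with 1 sign throughout was not computed. CYP24A1 differed in sign between extracts.

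**Figure D2:**
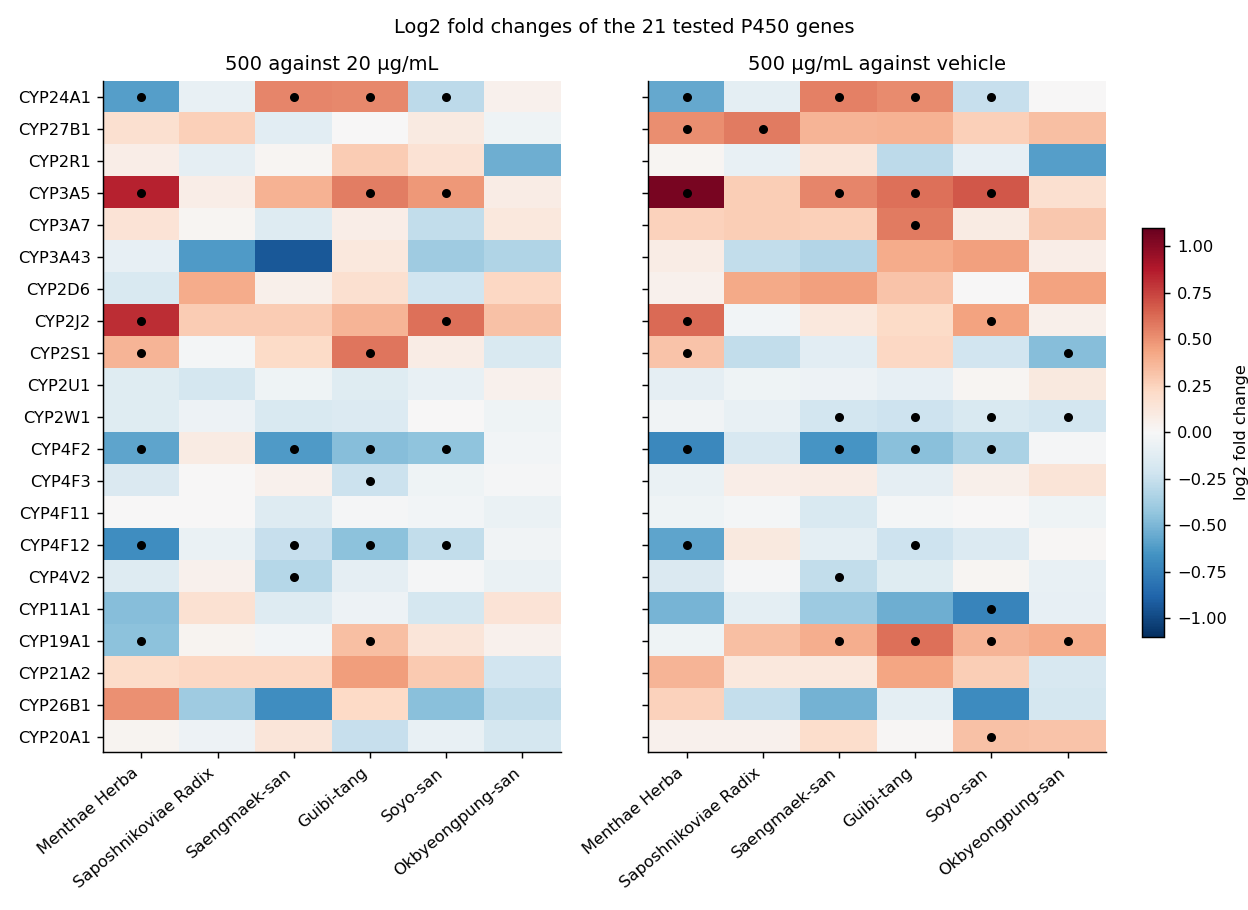
Log2 fold changes of the 21 tested members in 6 extracts (columns), at 500 against 20 µg/mL on the left and at 500 µg/mL against vehicle on the right; black dots mark an adjusted p under 0.05. CYP3A5 is higher in both panels with Menthae Herba (0.85 and 1.04), while CYP24A1 is lower with Menthae Herba (-0.61 and -0.56) and higher with Saengmaek-san and Guibi-tang.

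More members were called in the upper dose step than in the lower. At 500 against 100 µg/mL 7 members were called with Menthae Herba (25.9% of all genes), 0 with Saposhnikoviae Radix (0.156%), 4 with Saengmaek-san (2.2%), 5 with Guibi-tang (4.74%), 4 with Soyo-san (4.94%) and 0 with Okbyeongpung-san (0.0721%). At 100 against 20 µg/mL CYP24A1 with Menthae Herba was the 1 member called, where 0.937% of all genes were. In that step the other extracts had 0 members called by edgeR's quasi-likelihood test and between 0 and 4 members at an unadjusted p under 0.05. The background there was 0.012% with Saposhnikoviae Radix and Okbyeongpung-san, 0.00601% with Saengmaek-san and Soyo-san and 0.0781% with Guibi-tang. DESeq2 called 1 member with Guibi-tang in this step and 0 with the other 4. It gave no adjusted p there to 14 of the 21 members with Guibi-tang and to 13 with Okbyeongpung-san. At 500 against 100 µg/mL it called 0 with Saposhnikoviae Radix and Okbyeongpung-san, where 14 and 19 of the 21 members got no adjusted p from it and 4 and 1 members had an unadjusted p under 0.05 by edgeR.

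Set against vehicle, 32 member calls were made over the 6 extracts at 500 µg/mL, 15 at 100 µg/mL and 6 at 20 µg/mL. These comparisons share the vehicle libraries, and without vehicle replicate 2 the numbers were 18, 6 and 1, while without vehicle replicate 3 the number at 20 µg/mL was 2. In the sample names the vehicle libraries have their own first code (B1), while those of the tested extracts have 5, 6 or 7. What the codes stand for is not stated. A difference from vehicle therefore cannot be told apart from a difference between codes. At 500 µg/mL the calls were 7 with Menthae Herba (39.8% of all genes), 1 with Saposhnikoviae Radix (5.8%), 6 with Saengmaek-san (12.6%), 7 with Guibi-tang (13.4%), 8 with Soyo-san (21.5%) and 3 with Okbyeongpung-san (9.11%). At 100 µg/mL, in the same order of extracts, the calls were 1 (14% of all genes), 2 (5.47%), 2 (6.05%), 4 (7.96%), 2 (8.31%) and 4 (12.9%). At 20 µg/mL they were 1 (6.83%), 0 (7.19%, with 0 member calls by edgeR's quasi-likelihood test and by DESeq2 and 4 at an unadjusted p under 0.05), 1 (3.37%), 1 (4.38%), 1 (3.88%) and 2 (6.99%). With Saposhnikoviae Radix at 20 µg/mL DESeq2 gave 6 members no adjusted p. Across the 18 vehicle comparisons 13 members were called at least once. The share of all genes called at least once was not computed, and Menthae Herba at 500 µg/mL alone called 39.8% of them. CYP21A2, CYP26B1, CYP2D6, CYP2R1, CYP2U1, CYP3A43 and CYP4F11 were called in none of the 24 comparisons of a dose with vehicle or of 500 with 20 µg/mL.

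CYP24A1, on chromosome 20 (54153449 to 54173973, minus strand, GRCh38), encodes the mitochondrial enzyme that inactivates vitamin D by 24-hydroxylation and is a classical target of the vitamin D receptor. Its level turned in opposite directions with different extracts. With Menthae Herba the libraries held 25.3, 27 and 28.5 CPM with vehicle, 26.6, 28.6 and 28.4 CPM at 20 µg/mL, 34.5, 35.8 and 37.3 CPM at 100 µg/mL and 16.8, 19.3 and 18.7 CPM at 500 µg/mL. The 100 µg/mL libraries were thus all above, and the 500 µg/mL libraries all below, those of vehicle and 20 µg/mL, which overlapped each other. The log2 fold change was 0.37 at 100 against 20 µg/mL (adjusted p = 0.00026) and fell by 0.98 at 500 against 100 µg/mL (adjusted p = 1.2e-17), so that 500 against 20 µg/mL gave -0.61 ± 0.07 (SE; adjusted p = 8.3e-11). Against vehicle the log2 fold change was 0.42 at 100 µg/mL (adjusted p = 4.3e-06) and -0.56 at 500 µg/mL (adjusted p = 8.3e-10).

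Saengmaek-san and Guibi-tang raised CYP24A1. With Saengmaek-san it had 38.2, 39.6 and 40.3 CPM at 500 µg/mL, against 26.4, 27.8 and 26.9 CPM at 20 µg/mL. The groups did not overlap, and the log2 fold change was 0.54 ± 0.06 (adjusted p = 3.5e-08). With Guibi-tang it had 37.9, 36.7 and 40.9 CPM at 500 µg/mL, against 25.1, 27.3 and 27.5 CPM at 20 µg/mL, again without overlap (log2 fold change 0.53 ± 0.06, adjusted p = 7.1e-09). At 100 µg/mL the group means lay between, at 31.6 ± 2.23 CPM with Saengmaek-san and 32.5 ± 1.07 CPM with Guibi-tang (SD, n = 3 each), against 26.9 ± 1.63 CPM with vehicle. The call against vehicle at 100 µg/mL with Guibi-tang (log2 fold change 0.27, adjusted p = 0.005) was kept without any 1 library but lost in a fit of these groups alone (0.27, adjusted p = 0.095), while that with Saengmaek-san (0.23, adjusted p = 0.022) was lost without vehicle replicate 1 or its own replicate 2 or 3, with an adjusted p of up to 0.17.

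With Soyo-san CYP24A1 fell, to 22.6, 23.6 and 21.5 CPM at 500 µg/mL, against 27.2, 28.1 and 27.2 CPM at 20 µg/mL. All 3 libraries of the higher dose were below those of the lower dose, and the log2 fold change was -0.29 ± 0.07 (adjusted p = 0.0023). With Saposhnikoviae Radix the change was -0.08 (95% interval -0.2 to 0.05, adjusted p = 0.91) and with Okbyeongpung-san 0.05 (-0.07 to 0.18, adjusted p = 0.99), and the dose groups overlapped. The 4 calls of CYP24A1 at 500 against 20 µg/mL held in every fit that left out 1 library of either dose. The single Soshiho-tang libraries had 21.7 CPM at 20 µg/mL, 29.6 CPM at 100 µg/mL and 15.5 CPM at 500 µg/mL, with no replicate and no test. With the MALAT1 class in the model the changes were 0.54 with Saengmaek-san and 0.56 with Guibi-tang (adjusted p = 5.5e-09 and 5.4e-10). All libraries of Menthae Herba were of 1 class and so were all of Soyo-san, so the class could not alter their dose comparisons.

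The change of CYP24A1 between 20 and 500 µg/mL differed between extracts. The log2 fold change with Menthae Herba was lower by a difference of -1.15 ± 0.09 (SE) than with Saengmaek-san (adjusted p = 4.7e-14; 3 members and 13.9% of all genes called) and by -1.15 ± 0.09 than with Guibi-tang (adjusted p = 4.3e-14; 2 members and 16.5%). That with Soyo-san differed by -0.83 ± 0.09 from Saengmaek-san (adjusted p = 1.9e-08; 1 member and 0.841%) and by -0.82 ± 0.09 from Guibi-tang (adjusted p = 9.6e-09; 1 member and 2.1%). These 4 contrasts were added after CYP24A1 had been seen to move in opposite directions. Its calls in them are therefore no separate support for that. Between Saengmaek-san and Guibi-tang no member differed by edgeR's quasi-likelihood test (4 at an unadjusted p under 0.05, and 1.15% of all genes called). DESeq2 called 0 members and gave 2 no adjusted p. The difference for CYP24A1 was 0 ± 0.09.

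CYP27B1, the 1-alpha-hydroxylase that makes the active hormone, had 2.50, 2.39 and 2.23 CPM with Menthae Herba at 500 µg/mL, against 1.64, 1.55 and 1.80 CPM with vehicle, a log2 fold change of 0.51 ± 0.17 (adjusted p = 0.013). With Saposhnikoviae Radix it was higher than vehicle at 100 µg/mL (0.59, adjusted p = 0.029) and at 500 µg/mL (0.57, adjusted p = 0.033). These calls rest on few counts, 34 to 75 in any library. The Menthae Herba call was lost without vehicle replicate 2 or its own replicate 1 (adjusted p up to 0.053), and both Saposhnikoviae Radix calls were lost without vehicle replicate 1 or 2 or any of the extract's own libraries at that dose (adjusted p up to 0.13 at 500 and 0.14 at 100 µg/mL). At 500 against 20 µg/mL CYP27B1 was called in none of the 6 extracts, with log2 fold changes between -0.12 and 0.26. The libraries at 20 µg/mL held 2.23, 2.39 and 1.70 CPM with Menthae Herba and 2.50, 2.00 and 1.71 CPM with Saposhnikoviae Radix. CYP27B1 overlaps METTL1 on the same strand, so reads of the 2 genes may be mixed. CYP2R1, the liver 25-hydroxylase, lay between 0.569 and 1.39 CPM over all libraries and was not called. The vitamin D receptor VDR, a gene chosen after its values were seen, had 0.777 CPM at 500 µg/mL and 1.1 CPM at 20 µg/mL with Menthae Herba on average (log2 fold change -0.50 ± 0.28, adjusted p = 0.17) and was called in none of the 6 extracts.

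**Figure D3:**
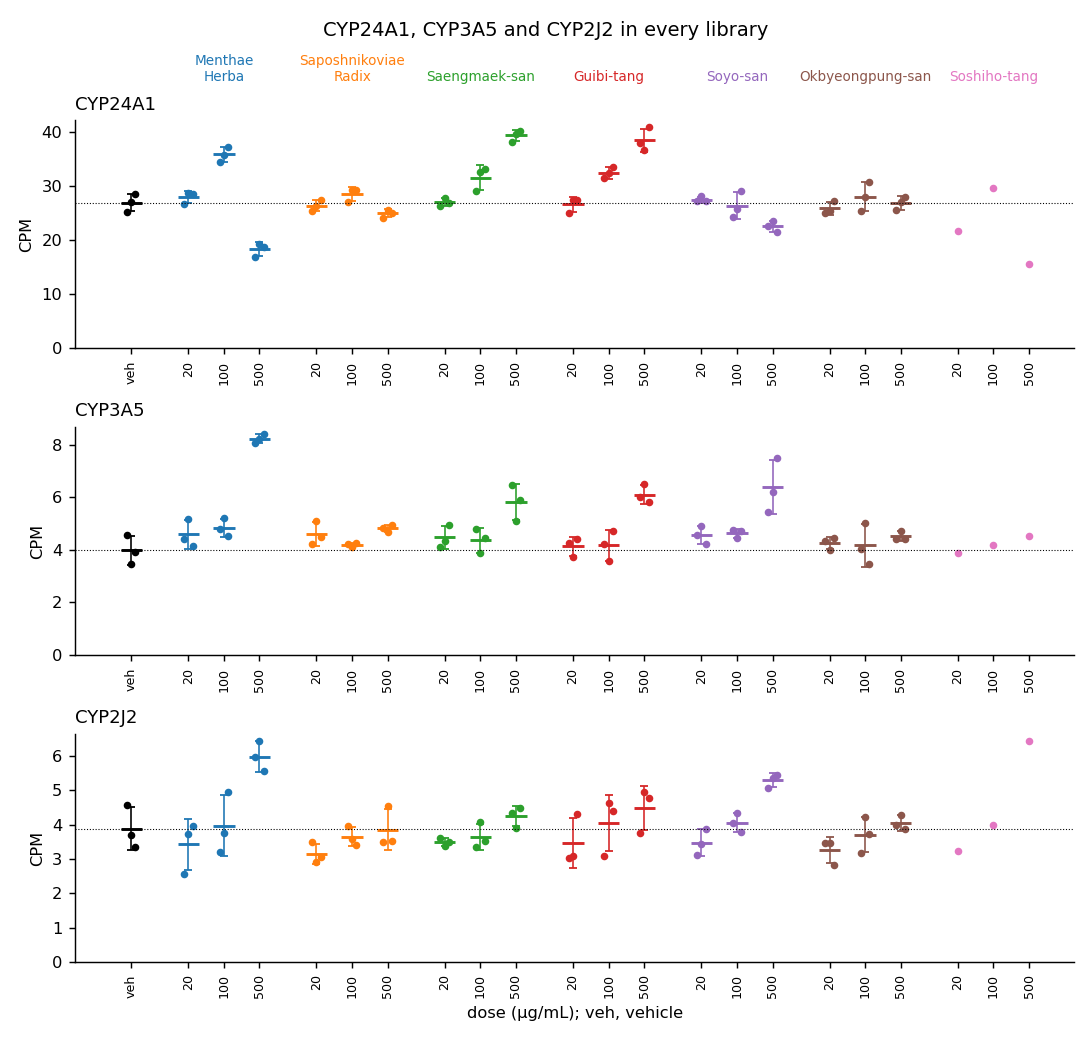
CPM of CYP24A1, CYP3A5 and CYP2J2 in every library with vehicle and at 20, 100 and 500 µg/mL of each extract; points are libraries, bars the mean with its SD over 3 libraries, and the dotted line the vehicle mean. CYP24A1 is between 16.8 and 19.3 CPM at 500 µg/mL of Menthae Herba and between 36.7 and 40.9 CPM at 500 µg/mL of Saengmaek-san and Guibi-tang, against 25.3 to 28.5 CPM with vehicle.

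Among the CYP3A genes, which share a cluster on chromosome 7, CYP3A5 rose in 3 extracts at 500 against 20 µg/mL and CYP3A7 was called in none. CYP3A5 is the form of adult liver and intestine whose expression is known to vary between people, and PXR (NR1I2), the pregnane X receptor, is the known inducer of the cluster through paired hexamers of AGGTCA type. RefSeq promoters were found for 17 of the 21 tested members; those of CYP3A5 and CYP3A7 are shown because these neighbours are set side by side here. They give the 250 bases before the annotated start on the GRCh38.p14 minus strand, at chr7:99679997-99680246 for CYP3A5 and chr7:99735197-99735446 for CYP3A7. Capitals mark matches on either strand to hexamers of nuclear receptor type (AGGTCA and the variants with AGTTCA or with AGGTGA) and to GCGTG, the core of the dioxin response element.
CYP3A5: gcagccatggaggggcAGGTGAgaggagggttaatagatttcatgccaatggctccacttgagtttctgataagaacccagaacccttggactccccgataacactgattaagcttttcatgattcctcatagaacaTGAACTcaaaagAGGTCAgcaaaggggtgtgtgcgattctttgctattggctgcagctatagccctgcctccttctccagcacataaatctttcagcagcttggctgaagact
CYP3A7: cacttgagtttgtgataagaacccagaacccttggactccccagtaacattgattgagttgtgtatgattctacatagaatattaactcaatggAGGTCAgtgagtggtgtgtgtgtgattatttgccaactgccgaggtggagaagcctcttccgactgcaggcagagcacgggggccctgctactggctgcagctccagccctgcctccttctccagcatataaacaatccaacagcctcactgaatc

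The CYP3A5 window held 3 marked hexamers. The first, AGGTGA, was at positions -234 to -229 relative to the start, and the others formed a diverging pair with 6 bases between them, TGAACT on the left and AGGTCA on the right, at -113 to -96. That pair was searched on both strands as these exact letters with any 6 bases between. It occurred in 3 of 35116 RefSeq promoter windows of the same length and in 1 of the 17 member windows. The letters searched are those of the CYP3A5 window, which therefore had to match. Other pairs and spacings of the hexamers were not searched. CYP3A7 held 1 AGGTCA, at -156 to -151. To its left, with the same 6 bases between, stood ttaact, which differs from TGAACT by 1 letter. Such near matches were not marked or searched. Over all windows AGGTCA occurred in 12.1%, AGTTCA in 8.8%, AGGTGA in 13.7% and GCGTG in 32.2%, and among the 17 members in 6, 1, 2 and 4. The pair contains an AGTTCA and an AGGTCA match, which are counted in those shares too. A match of letters is a description and not a binding site.

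CYP3A5 (99648194 to 99680026) had 8.08, 8.21 and 8.42 CPM at 500 µg/mL of Menthae Herba, against 4.43, 5.19 and 4.15 CPM at 20 µg/mL. The highest dose stood apart from the other groups, as the libraries at 100 µg/mL had 4.80, 5.21 and 4.53 CPM and those of vehicle 4.58, 3.46 and 3.91 CPM. The log2 fold change was 0.85 ± 0.11 at 500 against 20 µg/mL (adjusted p = 1.8e-08) and 1.04 ± 0.12 against vehicle (adjusted p = 1e-10). With Guibi-tang the libraries held 6.00, 6.51 and 5.81 CPM at 500 µg/mL, against 4.28, 3.72 and 4.42 CPM at 20 µg/mL (log2 fold change 0.56 ± 0.12, adjusted p = 0.00067). With Soyo-san they held 5.45, 6.21 and 7.49 CPM at 500 µg/mL, against 4.57, 4.91 and 4.23 CPM at 20 µg/mL (0.48 ± 0.12, adjusted p = 0.0041). In both extracts the doses did not overlap, but the Soyo-san call was lost without its 500 µg/mL replicate 3 (0.35, adjusted p = 0.1).

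With Saengmaek-san CYP3A5 had 6.48, 5.10 and 5.90 CPM at 500 µg/mL, against 4.11, 4.34 and 4.96 CPM at 20 µg/mL. This was not called (log2 fold change 0.38 ± 0.12, adjusted p = 0.089), although the comparison with vehicle was (0.54, adjusted p = 0.0012). At 500 µg/mL the gene was also above vehicle with Guibi-tang (0.61, adjusted p = 0.00017) and Soyo-san (0.68, adjusted p = 2.2e-05), and these 3 calls and the Menthae Herba call held in every fit that left out 1 library. With Saposhnikoviae Radix and Okbyeongpung-san the change from 20 to 500 µg/mL was 0.07 and 0.08 (adjusted p = 0.97 and 0.99). The single Soshiho-tang libraries had 3.88, 4.17 and 4.53 CPM at 20, 100 and 500 µg/mL. CYP3A5 shared 0.17% of its 100-base stretches with CYP3A4 and overlapped no annotated gene.

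CYP3A7 was called against vehicle with Guibi-tang at all 3 doses, with log2 fold changes of 0.51 at 20, 0.49 at 100 and 0.57 at 500 µg/mL (adjusted p = 0.029, 0.024 and 0.0037), and in no comparison of doses. Its libraries had 3.90, 3.06 and 3.78 CPM with vehicle, 5.36, 5.11 and 4.82 CPM at 20 µg/mL, 5.23, 4.91 and 5.00 CPM at 100 µg/mL and 4.69, 5.81 and 5.44 CPM at 500 µg/mL. The call at 20 µg/mL was lost without vehicle replicate 2 or 3 or any Guibi-tang library of that dose (adjusted p up to 0.18) and with the MALAT1 class in the model (0.48, adjusted p = 0.056), and that at 100 µg/mL without vehicle replicate 2 or Guibi-tang replicate 1 or 2 (up to 0.14). CYP3A7 is uncertain as a single gene: 37.7% of its 100-base stretches also occur in the overlapping readthrough gene CYP3A7-CYP3A51P. CYP3A43, of unclear function, and CYP2D6, which clears many antidepressants and opioids, were not called, with CYP2D6 between 0.794 and 1.82 CPM and sharing 13.5% of its 100-base stretches with other CYP2D genes.

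NR1I2 rose with Menthae Herba, to 20.6 CPM at 500 µg/mL, against 16.9 CPM at 20 µg/mL on average (log2 fold change 0.29 ± 0.06, adjusted p = 0.00023). Its partner RXRA, the retinoid X receptor, fell to 89.5 CPM, against 119.1 CPM at 20 µg/mL (-0.41 ± 0.07, adjusted p = 5.2e-06). Neither was called with the other 5 extracts, whose NR1I2 changes lay between 0 and 0.12, and both were chosen after their values were seen.

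Of the CYP2 enzymes, CYP2J2 makes epoxides of arachidonic acid and CYP2S1 is an extrahepatic form known as an aryl hydrocarbon receptor target. Both rose at the highest dose of Menthae Herba, and their promoters are shown with the same marking, CYP2J2 from chr1:59926774-59927023 (minus strand) and CYP2S1 from chr19:41192969-41193218 (plus strand).
CYP2J2: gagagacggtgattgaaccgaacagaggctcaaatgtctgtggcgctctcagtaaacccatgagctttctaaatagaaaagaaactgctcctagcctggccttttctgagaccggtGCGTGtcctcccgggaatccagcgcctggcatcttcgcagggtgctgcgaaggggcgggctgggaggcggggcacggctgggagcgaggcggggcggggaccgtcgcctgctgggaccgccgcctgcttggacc
CYP2S1: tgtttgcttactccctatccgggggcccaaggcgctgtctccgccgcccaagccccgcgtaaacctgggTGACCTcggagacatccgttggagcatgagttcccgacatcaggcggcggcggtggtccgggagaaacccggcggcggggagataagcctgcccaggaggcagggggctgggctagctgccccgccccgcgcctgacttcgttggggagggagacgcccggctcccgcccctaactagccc

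The CYP2J2 window held 1 GCGTG, at -134 to -130, and the CYP2S1 window 1 AGGTCA on the opposite strand (written TGACCT), at -181 to -176. CYP2S1 held no GCGTG in these bases.

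CYP2J2 (chromosome 1, 59893308 to 59926790) had 5.97, 6.45 and 5.56 CPM at 500 µg/mL of Menthae Herba, against 2.57, 3.73 and 3.97 CPM at 20 µg/mL. The libraries of the higher dose were all above those of the lower dose and of vehicle (4.58, 3.71 and 3.35 CPM). The log2 fold change was 0.81 ± 0.15 (adjusted p = 1.8e-05), and 0.62 ± 0.15 against vehicle (adjusted p = 0.00053). With Soyo-san it had 5.07, 5.37 and 5.46 CPM at 500 µg/mL, against 3.11, 3.45 and 3.88 CPM at 20 µg/mL (0.61 ± 0.15, adjusted p = 0.006), without overlap. This call was lost without the 20 µg/mL replicate 1 (0.53, adjusted p = 0.052). Against vehicle the Soyo-san value was 0.44 (adjusted p = 0.027), lost without vehicle replicate 2 or 3 or the extract's replicate 2 or 3 (up to 0.14). With the MALAT1 class in the model it was 0.27 (adjusted p = 0.29), and CYP2J2 was higher in the higher class in 5 of the 6 dose groups with both classes, by 0.17 on the log2 scale on average. With the other extracts the log2 fold change was positive but not called: 0.28 with Saposhnikoviae Radix, 0.28 with Saengmaek-san, 0.37 with Guibi-tang and 0.32 with Okbyeongpung-san (adjusted p between 0.14 and 0.99). No difference in this change between extracts was called; between Menthae Herba and Saposhnikoviae Radix it was 0.52 (95% interval 0.1 to 0.95, adjusted p = 0.081). Soshiho-tang had 3.24, 3.98 and 6.45 CPM at 20, 100 and 500 µg/mL in single libraries.

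CYP2S1 (chromosome 19, 41193049 to 41207539) rose with Guibi-tang, to 10.5, 11.9 and 7.68 CPM at 500 µg/mL, against 6.40, 6.85 and 6.80 CPM at 20 µg/mL. Replicate 3 of the higher dose lay nearest to the lower dose but above all of it, and the log2 fold change was 0.59 ± 0.12 (adjusted p = 4e-04). Against vehicle (8.9, 8.1 and 8.6 CPM) Guibi-tang at 500 µg/mL was not called for CYP2S1. The vehicle libraries lay above all those at 20 µg/mL and above replicate 3 at 500 µg/mL. With Menthae Herba it had 10.1, 11.0 and 10.8 CPM at 500 µg/mL, against 8.37, 6.69 and 9.53 CPM at 20 µg/mL (0.37 ± 0.12, adjusted p = 0.011). That call was lost without the 20 µg/mL replicate 2 (0.24, adjusted p = 0.13). CYP2S1 was below vehicle with Okbyeongpung-san at 100 µg/mL (5.71 ± 0.474 CPM, against 8.54 ± 0.415 CPM with vehicle), with a log2 fold change of -0.58 (adjusted p = 0.001). It was also below vehicle at 500 µg/mL (-0.47, adjusted p = 0.01), a call lost without the extract's replicate 2 (adjusted p = 0.12). With Menthae Herba at 500 µg/mL it was above vehicle (0.31, adjusted p = 0.028), a call lost without vehicle replicate 2 or the extract's replicate 2 or 3 (up to 0.099). With the MALAT1 class in the model the Okbyeongpung-san value at 500 µg/mL was -0.35 (adjusted p = 0.096).

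CYP2W1 (chromosome 7, 983199 to 989640) changed little. Its level with vehicle was 98.6, 112.0 and 110.5 CPM, and it was called as lower in 7 of the 18 vehicle comparisons, with log2 fold changes between -0.17 (Soyo-san at 500 µg/mL, where the groups overlapped) and -0.26. All 7 were with formulae that had libraries of the higher MALAT1 class. With the class in the model 3 of these calls stayed, with Saengmaek-san at 500 µg/mL (-0.18, adjusted p = 0.026), Guibi-tang at 500 µg/mL (-0.21, adjusted p = 0.0089) and Okbyeongpung-san at 100 µg/mL (-0.19, adjusted p = 0.049). The call that held in every fit without 1 library was that of Okbyeongpung-san at 100 µg/mL. Saengmaek-san at 500 µg/mL was lost without vehicle replicate 2 or 3 or its own replicate 3 (adjusted p up to 0.1), and Guibi-tang at 500 µg/mL without its own replicate 3 (adjusted p = 0.058). The other 4 were lost without vehicle replicate 2 or 3, and also without Guibi-tang replicate 1 at 100, Soyo-san replicate 2 or 3 at 100 or 1 or 2 at 500, or any Okbyeongpung-san library at 500 µg/mL (adjusted p up to 0.23). CYP2U1, a fatty acid hydroxylase, ranged from 7.31 to 10.3 CPM and was not called.

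The CYP4F genes form a cluster on chromosome 19, and CYP4F2 and CYP4F12 each fell with Menthae Herba, Saengmaek-san, Guibi-tang and Soyo-san. CYP4F2 hydroxylates arachidonic acid, the tail of vitamin E and vitamin K; CYP4F12 acts on arachidonic acid and some antihistamines; CYP4F3 inactivates leukotriene B4. CYP4F12 (15672757 to 15697174, plus strand) had 13.6, 14 and 11.4 CPM at 500 µg/mL of Menthae Herba, against 21.3, 21.1 and 20.2 CPM at 20 µg/mL. The doses were well apart, and vehicle lay near the lower dose with 19.4, 19.6 and 19.2 CPM. The log2 fold change was -0.68 ± 0.07 at 500 against 20 µg/mL (adjusted p = 8.7e-11). With Guibi-tang it had 15.1, 17.4 and 17.1 CPM at 500 µg/mL, against 23.2, 21.2 and 23.7 CPM at 20 µg/mL (-0.45 ± 0.07, adjusted p = 6.8e-06). Both calls held in every fit that left out 1 library. Against vehicle the 500 µg/mL values were -0.58 with Menthae Herba (adjusted p = 7.3e-09), which also held, and -0.23 with Guibi-tang (adjusted p = 0.028), which was lost without any vehicle library or Guibi-tang replicate 1 (up to 0.18).

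With Soyo-san CYP4F12 had 17.2, 17.5 and 17.7 CPM at 500 µg/mL, against 21, 20.3 and 21.8 CPM at 20 µg/mL (-0.27 ± 0.07, adjusted p = 0.011), a call lost without the 500 µg/mL replicate 1 or the 20 µg/mL replicate 3 (adjusted p up to 0.068). With Saengmaek-san it had 17.1, 18.8 and 18.2 CPM at 500 µg/mL, against 22.7, 20.8 and 20.8 CPM at 20 µg/mL. The doses did not overlap, but the call (-0.25 ± 0.07, adjusted p = 0.05 after rounding) was lost without any 1 of the 6 libraries, replicates 1, 2 and 3 of either dose, with an adjusted p between 0.056 and 0.3. Neither Soyo-san nor Saengmaek-san was called for CYP4F12 at 500 µg/mL against vehicle. In both extracts the 500 µg/mL libraries lay below those of vehicle (19.2 to 19.6 CPM) and the 20 µg/mL libraries above them. With Saposhnikoviae Radix and Okbyeongpung-san the change from 20 to 500 µg/mL was -0.07 and -0.04 (adjusted p = 0.93 and 0.99). The single Soshiho-tang libraries held 23.1, 22.7 and 19.1 CPM at 20, 100 and 500 µg/mL. At 100 µg/mL CYP4F12 was above vehicle with Saposhnikoviae Radix (0.26, adjusted p = 0.025) and Saengmaek-san (0.23, adjusted p = 0.04). The first was lost without vehicle replicate 1 or 2 or any of the extract's libraries of that dose (adjusted p up to 0.11), and the second without any vehicle library or Saengmaek-san replicate 2 or 3 (up to 0.23).

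CYP4F2 (15878023 to 15898120, minus strand) had 2.77, 2.6 and 2.58 CPM at 500 µg/mL of Menthae Herba, against 3.94, 4.30 and 3.72 CPM at 20 µg/mL (log2 fold change -0.58 ± 0.13, adjusted p = 0.00033). With Saengmaek-san it had 2.40, 3.24 and 2.66 CPM, against 3.65, 4.69 and 4.36 CPM at 20 µg/mL (-0.62 ± 0.13, adjusted p = 0.0027). With Guibi-tang it had 2.89, 3.31 and 3.24 CPM, against 3.88, 5.15 and 4.12 CPM (-0.47 ± 0.12, adjusted p = 0.01). In these extracts every library of the higher dose was below every one of the lower. With Soyo-san the means were 3.41 ± 0.255 and 4.62 ± 0.193 CPM (SD, n = 3 each) at 500 and 20 µg/mL (-0.44 ± 0.13, adjusted p = 0.017). The Menthae Herba call held without any 1 library. The others were lost without Saengmaek-san 500 µg/mL replicate 1 (adjusted p = 0.063), Guibi-tang 500 µg/mL replicate 1 or 20 µg/mL replicate 2 (up to 0.15), and Soyo-san 500 µg/mL replicate 1 or 3 or 20 µg/mL replicate 2 (up to 0.099). Against vehicle, CYP4F2 at 500 µg/mL was lower with Menthae Herba (-0.71, adjusted p = 1e-05) and Saengmaek-san (-0.65, adjusted p = 0.00029), calls that held without any 1 library. It was also lower with Guibi-tang (-0.46, adjusted p = 0.0084; lost without the extract's replicate 1, with 0.053) and Soyo-san (-0.35, adjusted p = 0.038; lost without vehicle replicate 1 or 3 or the extract's replicate 1 or 3, up to 0.14, and with the MALAT1 class in the model, -0.3 with 0.15). Its counts were 59 to 145 per library, and 2.56% of its 100-base stretches also occur in CYP4F3.

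CYP4F3 fell with Guibi-tang by 0.24 on the log2 scale, to 20.0, 20.7 and 17.4 CPM at 500 µg/mL, against 21.5, 23.8 and 23.3 CPM at 20 µg/mL (adjusted p = 0.031). The call was lost without the 20 µg/mL replicate 2 or 3 or the 500 µg/mL replicate 3 (adjusted p up to 0.24). CYP4F11, which hydroxylates long-chain fatty acids and lies beside CYP4F2, ranged over 18.9 to 25.6 CPM and its log2 fold change lay between -0.14 and 0 at 500 against 20 µg/mL, with no call. CYP4V2, a fatty acid hydroxylase whose loss causes a crystalline retinal dystrophy, had 13.9, 15.7 and 17.0 CPM at 500 µg/mL of Saengmaek-san, against 17.6, 20.4 and 19.6 CPM at 20 µg/mL (-0.31 ± 0.08, adjusted p = 0.028). That call was lost without the 500 µg/mL replicate 1 or 2 or the 20 µg/mL replicate 2 or 3 (adjusted p up to 0.3). So was that against vehicle (-0.27, adjusted p = 0.025), without vehicle replicate 1 or 2 or the extract's replicate 1 or 2 (up to 0.19). CYP4V2 overlaps KLKB1 on the same strand.

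**Figure D4:**
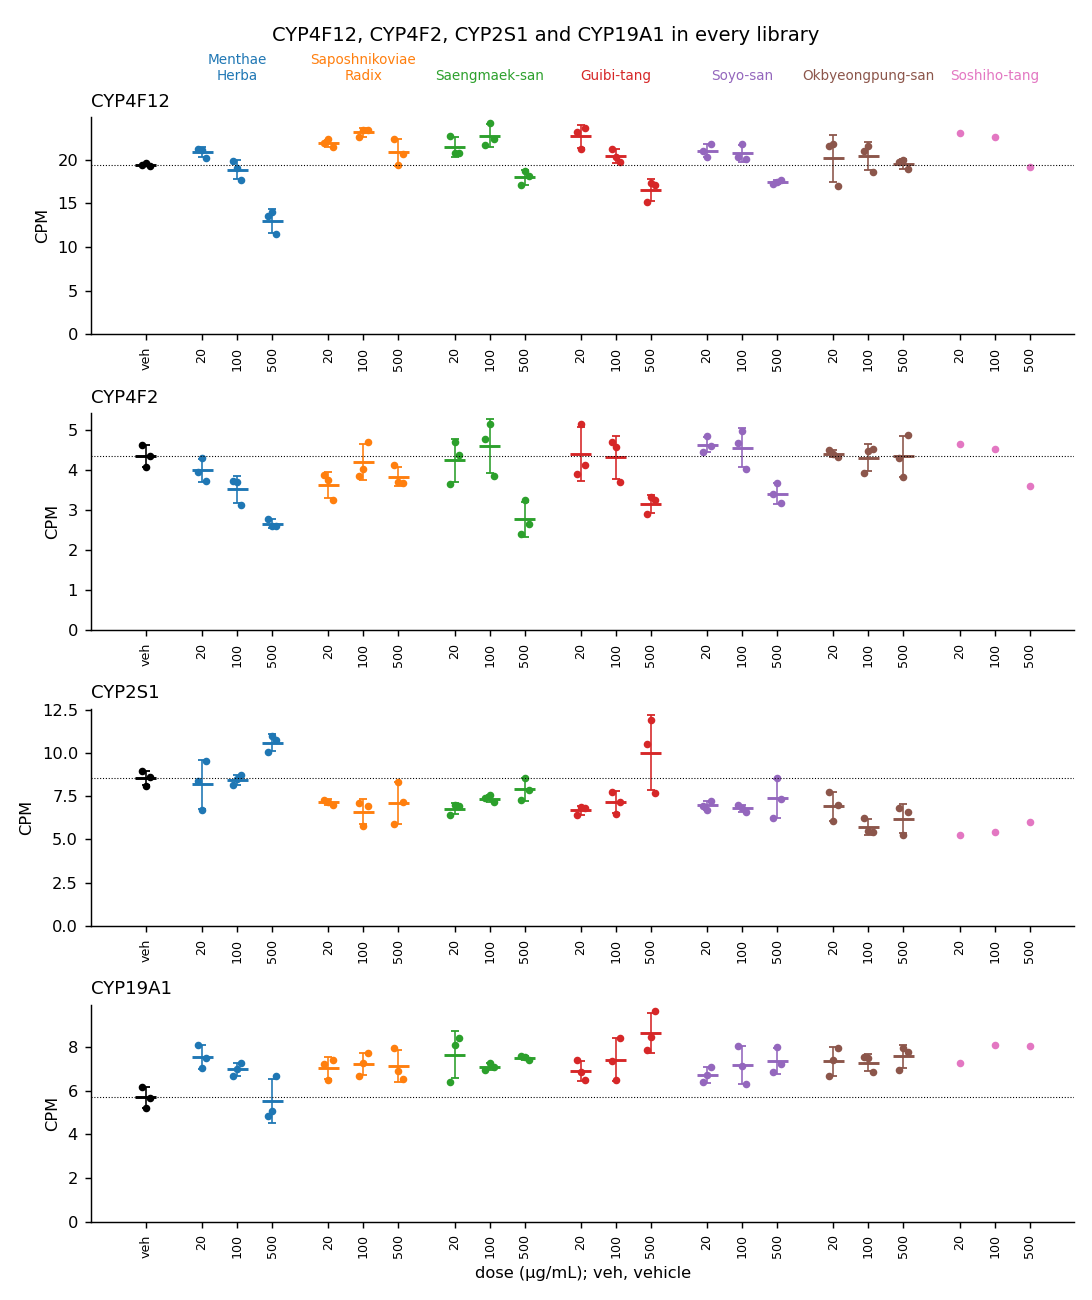
CPM of CYP4F12, CYP4F2, CYP2S1 and CYP19A1 in every library with vehicle and at 20, 100 and 500 µg/mL of each extract; points are libraries, bars the mean with its SD over 3 libraries, and the dotted line the vehicle mean. CYP4F12 lies between 11.4 and 14 CPM at 500 µg/mL of Menthae Herba, against 19.2 to 19.6 CPM with vehicle.

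Among the steroid enzymes, CYP19A1 (aromatase, which turns androgens into oestrogens; chromosome 15, 51208057 to 51338610, minus strand) moved in opposite directions with Menthae Herba and Guibi-tang. With Menthae Herba it had 4.82, 5.07 and 6.66 CPM at 500 µg/mL, against 8.10, 7.02 and 7.47 CPM at 20 µg/mL (log2 fold change -0.45 ± 0.11, adjusted p = 0.00095), a call that held without any 1 library. With Guibi-tang it had 7.84, 8.46 and 9.65 CPM at 500 µg/mL, against 7.40, 6.85 and 6.50 CPM at 20 µg/mL (0.33 ± 0.1, adjusted p = 0.039). In both extracts the doses did not overlap, but the Guibi-tang call was lost without replicate 2 or 3 of either dose (adjusted p up to 0.24). The change differed between Menthae Herba and Guibi-tang by -0.78 ± 0.15 (adjusted p = 0.00013).

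The vehicle libraries held 6.18, 5.22 and 5.67 CPM of CYP19A1, and the gene was called as higher in 9 of the 18 vehicle comparisons, 3 of them at 20 µg/mL. At 500 µg/mL of Menthae Herba it did not differ detectably from vehicle (-0.05). The call against vehicle that held without any 1 library was that of Guibi-tang at 500 µg/mL (0.61 ± 0.11, adjusted p = 4.7e-05). All the other 8 were lost without vehicle replicate 2, with an adjusted p of up to 0.21 over the single libraries left out. With the MALAT1 class in the model 5 were lost: Soyo-san at 500 (0.32, adjusted p = 0.074), Okbyeongpung-san at 500 (0.36, adjusted p = 0.054), 100 (0.3, adjusted p = 0.11) and 20 (0.31, adjusted p = 0.11), and Guibi-tang at 100 µg/mL (0.35, adjusted p = 0.053). Guibi-tang and Okbyeongpung-san at 100 and Saengmaek-san and Okbyeongpung-san at 20 µg/mL were also lost without vehicle replicate 3, and Menthae Herba at 20 µg/mL without vehicle replicate 1. Loss of a single library of the extract ended 7 of the 8 calls, all but Saengmaek-san at 500 µg/mL: replicate 2 of Soyo-san or Okbyeongpung-san at 500, replicate 3 of Guibi-tang or replicate 1 or 2 of Okbyeongpung-san at 100, and replicate 1 of Menthae Herba or replicate 2 or 3 of Saengmaek-san or Okbyeongpung-san at 20 µg/mL. CYP11A1, which starts steroid synthesis from cholesterol, had 0.687, 0.417 and 0.567 CPM at 500 µg/mL of Soyo-san, against 0.858, 0.978 and 0.945 CPM with vehicle. These values are 10 to 16 counts, against 22 to 24 counts, and the call (-0.73 ± 0.26, adjusted p = 0.044) was lost without any vehicle library or Soyo-san replicate 2 or 3 (adjusted p up to 0.21) and with the MALAT1 class in the model (-0.8, adjusted p = 0.067). CYP21A2, the adrenal 21-hydroxylase, was not called, and 20.0% of its 100-base stretches also occur in the pseudogene CYP21A1P. CYP26B1 had 3 to 15 counts per library and was not called.

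CYP20A1 moved with the MALAT1 class. It was called as higher than vehicle with Soyo-san at 20, 100 and 500 µg/mL (log2 fold changes 0.40, 0.40 and 0.32; adjusted p = 0.027, 0.017 and 0.027) and with Okbyeongpung-san at 20 and 100 µg/mL (0.50 and 0.47; adjusted p = 0.0038 and 0.0024). The means were 45.1 ± 1.47 CPM with Soyo-san at 500 µg/mL and 36.0 ± 1.29 CPM with vehicle (SD, n = 3 each). In the 6 dose groups of Saengmaek-san and Guibi-tang that held both classes, CYP20A1 was higher in the higher class in 6 of 6, by 0.29 on the log2 scale on average (0.20 to 0.38). With the class in the model the Soyo-san changes were 0.11 at 20, 0.11 at 100 and 0.03 at 500 µg/mL (adjusted p = 0.55, 0.53 and 0.84), and those of Okbyeongpung-san 0.21 and 0.19 at 20 and 100 µg/mL (adjusted p = 0.14 and 0.17). Soyo-san and Okbyeongpung-san have no library of the vehicle's class, so that class and extract cannot be told apart within them. Without the class in the model, the call of Okbyeongpung-san at 100 µg/mL held without any 1 library. The others were lost without Okbyeongpung-san 20 µg/mL replicate 3, Soyo-san 100 µg/mL replicate 3, Soyo-san 500 µg/mL replicate 2 or 3, Soyo-san 20 µg/mL replicate 1 or 2, any vehicle library (Soyo-san at 20 µg/mL) or vehicle replicate 2 (Soyo-san at 100 and 500 µg/mL), with an adjusted p of up to 0.12.

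**Figure D5:**
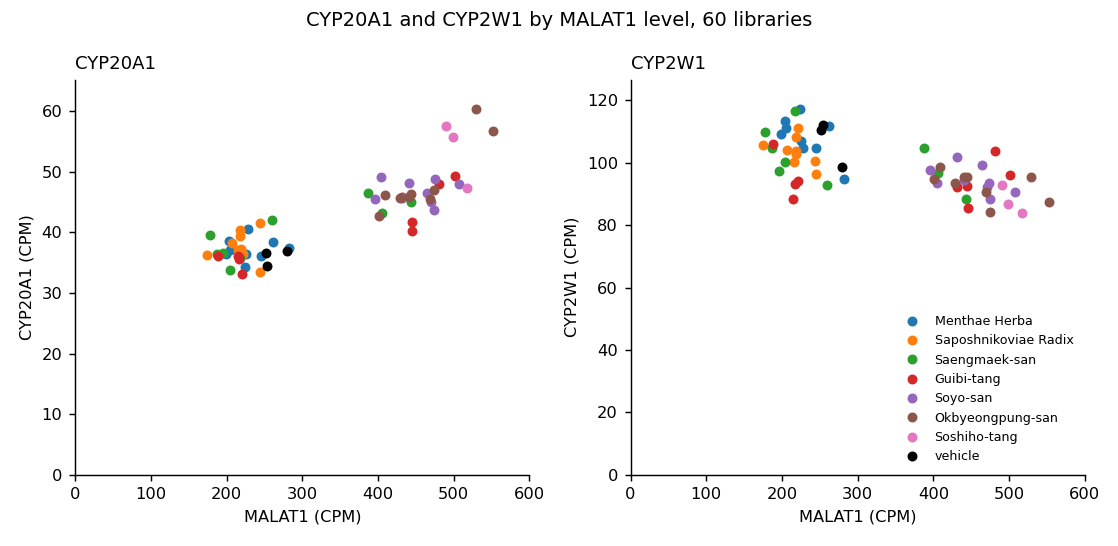
CYP20A1 (left) and CYP2W1 (right) in CPM against MALAT1 in CPM; each point is 1 of 60 libraries, coloured by extract or vehicle. The 29 libraries with 387.0 CPM or more of MALAT1 lie higher for CYP20A1 than most of the 31 with 282.6 CPM or less, and they include no vehicle library.

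Beyond CYP24A1 and CYP19A1, the change at 500 against 20 µg/mL differed between extracts for a few members. Between Menthae Herba and Saposhnikoviae Radix 5 members differed, where 20% of all genes did. CYP3A5 differed by 0.78 ± 0.16 (adjusted p = 0.00026), CYP4F12 by -0.62 ± 0.1 (adjusted p = 6.2e-06), CYP4F2 by -0.67 ± 0.18 (adjusted p = 0.0045), CYP24A1 by -0.53 ± 0.09 (adjusted p = 1.4e-05) and CYP19A1 by -0.48 ± 0.15 (adjusted p = 0.019). The CYP19A1 difference was lost without any of 5 single libraries, replicate 1 or 2 of Menthae Herba at 500, replicate 1 of Menthae Herba at 20, replicate 1 of Saposhnikoviae Radix at 500 and replicate 2 of Saposhnikoviae Radix at 20 µg/mL (adjusted p up to 0.089). Between Soyo-san and Okbyeongpung-san CYP24A1 alone differed (-0.34 ± 0.09, adjusted p = 0.031; 2.36% of all genes), and this was lost without any 1 of the 12 libraries except Soyo-san 500 µg/mL replicate 2, Okbyeongpung-san 500 µg/mL replicate 1 and Okbyeongpung-san 20 µg/mL replicate 3 (adjusted p up to 0.11).

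Genes that serve the P450 enzymes were read from lists of related pathways. Of 10 electron transfer partners, 2 rose and 4 fell with Menthae Herba at 500 against 20 µg/mL, where 32.1% of all tested genes were called. The median log2 fold change was -0.12 where that of all genes was -0.005. The adrenodoxin reductase FDXR fell to 81.8 CPM at 500 µg/mL, against 99.3 CPM at 20 µg/mL (-0.28 ± 0.06, adjusted p = 4e-04), the haem-binding P450 partner PGRMC1 fell by 0.24 on the log2 scale (adjusted p = 1e-04) and cytochrome b5 (CYB5A) by 0.21 (adjusted p = 0.02). With Guibi-tang and Soyo-san 0 rose and 1 fell, where 8.12% and 7.58% of all genes were called. With the other 3 extracts none was called by edgeR's quasi-likelihood test. The share of all genes there was 1.96% with Saengmaek-san, 0.397% with Saposhnikoviae Radix and 0.024% with Okbyeongpung-san.

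Of 12 genes of haem synthesis and breakdown, 1 rose and 2 fell with Menthae Herba, 3 rose with Guibi-tang and 1 rose with Saengmaek-san. The medians were 0.01, 0.08 and 0.01, and 32.1%, 8.12% and 1.96% of all tested genes were called in these extracts. ALAS1, the rate-limiting enzyme of liver haem synthesis, rose to 57.9 CPM at 500 µg/mL, against 42.2 CPM at 20 µg/mL with Menthae Herba (0.46 ± 0.05, adjusted p = 1.1e-10). It also rose with Guibi-tang (0.28 ± 0.05, adjusted p = 6e-05). HMOX1, which degrades haem, fell with Menthae Herba (-0.41 ± 0.06, adjusted p = 4.5e-07) and rose with Guibi-tang (0.25 ± 0.06, adjusted p = 0.0046).

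Of 24 tested receptors and liver transcription factors, 4 rose and 8 fell with Menthae Herba, 1 and 6 with Soyo-san, 1 and 2 with Guibi-tang and 0 and 1 with Saengmaek-san. Of all tested genes 32.1%, 7.58%, 8.12% and 1.96% were called in these extracts. The medians of the list were -0.07, -0.06, 0 and -0.06. The bile acid receptor NR1H4 fell to 13.4 CPM at 500 µg/mL of Menthae Herba, against 37.7 CPM at 20 µg/mL (-1.49 ± 0.06, adjusted p = 9.6e-26). The liver factor CEBPA fell to 64.5 CPM, against 172.4 CPM (-1.42 ± 0.11, adjusted p = 9.2e-14), and also with Soyo-san (-0.58 ± 0.11, adjusted p = 0.00022). NR1H4 fell too with Saengmaek-san, Guibi-tang and Soyo-san (-0.27, -0.40 and -0.69; adjusted p = 0.0024, 7.2e-07 and 3.9e-13). The corepressor NR0B2 rose with Menthae Herba (0.78 ± 0.07, adjusted p = 1.2e-13), Guibi-tang (0.26, adjusted p = 0.012) and Soyo-san (0.46, adjusted p = 4.3e-06).

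Among 12 other tested enzymes of phase I metabolism and epoxide hydrolysis, 2 rose and 8 fell with Menthae Herba, 2 and 4 with Soyo-san, 0 and 6 with Guibi-tang and 0 and 3 with Saengmaek-san. The medians were -0.23, -0.12, -0.19 and -0.12, and 32.1%, 7.58%, 8.12% and 1.96% of all tested genes were called. The alcohol dehydrogenase ADH4 fell in these 4 extracts, by 0.86, 0.40, 0.59 and 0.26 on the log2 scale (adjusted p = 5.7e-14, 4.7e-05, 1.5e-08 and 0.03). The flavin monooxygenase FMO5 rose with Menthae Herba (0.68 ± 0.05, adjusted p = 1.9e-15) and Soyo-san (0.42 ± 0.05, adjusted p = 6.5e-08). Monoamine oxidase A (MAOA) rose with Menthae Herba (0.73 ± 0.06, adjusted p = 5.3e-14). Of 9 tested genes of retinoid handling, 5 rose and 3 fell with Menthae Herba, 2 rose and 1 fell with Guibi-tang and 2 rose with Soyo-san. Their medians were 0.13, 0 and 0.05, where 32.1%, 8.12% and 7.58% of all genes were called. With Saposhnikoviae Radix and Okbyeongpung-san 0 genes of these 5 lists were called by edgeR's quasi-likelihood test, where 0.397% and 0.024% of all genes were.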

How the data were processed

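The deposited table holds expected counts per gene for 60 libraries of HepG2 cells, whose RNA was sequenced with a strand-specific kit per the labels' protocols. FastQC 0.11.9, Trim Galore 0.6.5, STAR 2.7.3a, RSEM 1.3.3 and GRCh38 are named in the submitters' processing notes; their settings, the annotation release and the strand handling were not given in the sources used here. Of the nonzero deposited values 71.9% were whole, and estimated counts were rounded for the tests. Library totals had a median of 25862356.

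Gene symbols came from a gene name table, or from GENCODE release 29 where it had none. Gene classes and exon lengths came from GENCODE release 29 and promoter sequences from RefSeq. edgeR 4.0.16 (limma 3.58.1, R 4.3.3) fitted 57 libraries in 19 groups by quasi-likelihood on TMM factors, after filterByExpr with a minimum count of 10 left 16644 genes. P-values were adjusted by Benjamini-Hochberg over all of these, with a threshold of 0.05, and every adjusted p in the text is from this test unless another is named. The scripts' statistics were tested on simulated data. CPM uses each library's total over the 16644 tested genes multiplied by its TMM factor. Replicate pairs of a group differed beyond sampling noise (chi-square per degree of freedom 2.27 to 19.5), so none was counted as 1 library.

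Members and lists were chosen with earlier results of these data known. The comparisons of 500 with 100 and of 100 with 20 µg/mL, and the 4 contrasts of Menthae Herba or Soyo-san with Saengmaek-san or Guibi-tang, were added after the data had been seen. Members called at 500 against 20 µg/mL and the main drug-metabolising members are described individually, and up to 3 genes of each list by largest change. NR1I2, RXRA and VDR fall outside this rule. Alternatives were RLE size factors, no filter, DESeq2 1.42.0, the groups compared alone, the replicate number or the MALAT1 class as a covariate, and leaving out single libraries. Results for some genes are not reported here.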

Additional observations from a re-analysis of the deposited data

Results flagged for a closer look

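The change in level at 500 against 20 µg/mL differed between extracts for 5 members, by a test of the difference itself in edgeR's quasi-likelihood model. The share of all genes called in at least 1 contrast was not computed. Menthae Herba against Saposhnikoviae Radix alone called 20% of them. CYP24A1, the vitamin D 24-hydroxylase, was in 6 of the 7 contrasts tested. Its difference was -0.53 between Menthae Herba and Saposhnikoviae Radix, -0.34 between Soyo-san and Okbyeongpung-san, -1.15 between Menthae Herba and either Saengmaek-san or Guibi-tang, -0.83 between Soyo-san and Saengmaek-san and -0.82 between Soyo-san and Guibi-tang. The difference between Soyo-san and Okbyeongpung-san was lost in 9 of 12 fits that left out 1 library, with an adjusted p of up to 0.11, and the other 5 were kept in 12 of 12.

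CYP3A5 differed by 0.78 between Menthae Herba and Saposhnikoviae Radix and by 0.47 between Menthae Herba and Saengmaek-san. The second (adjusted p = 0.048) was lost in 9 of 12 fits that left out 1 library, all but those without Menthae Herba 20 µg/mL replicate 2 or replicate 1 of Saengmaek-san at 500 or 20 µg/mL, with an adjusted p of up to 0.16. It was also lost with DESeq2 (adjusted p = 0.074), in a fit of only the groups compared (0.079), without the filter on low counts (0.12) and with the replicate block (0.052). CYP4F12 differed by -0.62 between Menthae Herba and Saposhnikoviae Radix and by -0.43 between Menthae Herba and Saengmaek-san (adjusted p = 0.0024). CYP4F2 differed by -0.67 and CYP19A1 by -0.48 between Menthae Herba and Saposhnikoviae Radix, and CYP19A1 by -0.78 between Menthae Herba and Guibi-tang. The contrasts of Menthae Herba or Soyo-san with Saengmaek-san or Guibi-tang were chosen after CYP24A1 had been seen to move in opposite directions.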

How the results depend on the processing

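No called member value reversed under any alternative run. Values that were not called were not checked for this. Of 110 called values, 109 kept their call with RLE size factors, 109 with the replicate block, 90 without the filter on low counts, 91 with the MALAT1 class in the model and 74 when the fit held only the groups compared; DESeq2 kept 102 of 107. Fits of only the groups compared gave 1 member with Saengmaek-san and 4 with Guibi-tang at 500 against 20 µg/mL, and 8 and 2 calls at 100 and 20 µg/mL against vehicle; these fits have fewer libraries from which to estimate the spread. With the replicate block the members called at 500 against 20 µg/mL were 7 with Menthae Herba and 7 with Guibi-tang, 5 with Soyo-san, 4 with Saengmaek-san and 0 with the others, and 33, 16 and 7 calls were made against vehicle at 500, 100 and 20 µg/mL. The call lost with the replicate block was the CYP3A5 difference between Menthae Herba and Saengmaek-san (0.47, adjusted p = 0.052). The numbers share no stated origin, and no comparison had all 3 of its same-number correlations over 0.1. A block within the first code number of the sample names could not be fitted for the vehicle comparisons. Leaving out single libraries gave 1 to 3 members with Saengmaek-san, 4 to 8 with Guibi-tang and 3 to 5 with Soyo-san, and 18 to 33, 6 to 16 and 1 to 6 calls against vehicle at 500, 100 and 20 µg/mL. Depth limits the 27 untested members and those under about 100 counts, such as CYP27B1 and CYP11A1.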
